A study of Mus musculus with 4 samples.

Results

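The genes described here are 10 genes of the endoplasmic reticulum (ER) protein folding machinery, Hspa5, Hsp90b1, Hyou1, Calr, Canx, Pdia3, Pdia4, Pdia6, Sdf2l1 and Xbp1. They were taken by gene symbol from the 23420 genes listed in the deposited tables. All 10 were found and all 10 passed the read minimum, among 16077 genes tested. Cochleae of postnatal day 1 Atoh1-GFP mice on a CD-1 background were cultured overnight and then kept for 3 h with 0.5 mM gentamicin, an aminoglycoside antibiotic that damages hair cells, or without it. In these mice GFP is driven by an Atoh1 enhancer and marks hair cells. GFP positive hair cells and GFP negative non-hair cells were sorted, cells with low GFP were gated out of the hair cells, and polyadenylated RNA was sequenced. This gave 4 groups of 3 replicates: control hair cells, gentamicin-treated hair cells, control non-hair cells and gentamicin-treated non-hair cells, all with the same reporter, strain, age and culture. The non-hair cells are a mixture of supporting cells, other epithelium and surrounding tissue. The sources used here do not say how many pups or litters went into a replicate.

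Proteins that enter the secretory pathway are folded in the ER with the help of chaperones, lectins and disulfide isomerases. When unfolded proteins build up there, the sensors ATF6, IRE1 and PERK start the unfolded protein response. ATF6 and the spliced product of Xbp1 raise transcription of ER chaperone genes, whereas PERK slows translation and favours synthesis of the transcription factor ATF4. Promoters of ER chaperone genes are known for the ER stress response element (ERSE), a CCAAT box bound by NF-Y followed, after a fixed spacer, by a short site, CCACG, bound by ATF6. Hair cells are known to produce many membrane proteins, among them channels and adhesion proteins of the hair bundle.

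The promoters of these genes are shown first, since the ERSE is the sequence feature that the genes are known to share. The search was chosen after the expression values had been seen. RefSeq promoter sequences of build GRCm38.p6, the patched form of mm10, were matched by symbol for 9 of the 10 genes, all but Hyou1. The 250 bases before the transcript start were searched on both strands for the exact ERSE, CCAAT followed by any 9 bases and CCACG. The motif was present in 5 of these 9 genes, 55.6%, and in 37 of 32851 promoters of all genes, 0.113%. The genes were Hspa5, Hsp90b1, Calr, Canx and Pdia6, and Hsp90b1 held 2 copies. The stretches below are given 5′ to 3′ on the strand of the gene, and capitals mark the 10 letters that the motif fixes, which read CGTGG and ATTGG where the motif lies on the opposite strand.
Hspa5, chr2:34772005-34772063, plus strand, motif from base -65: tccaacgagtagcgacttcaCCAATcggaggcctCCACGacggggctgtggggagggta
Hsp90b1, chr10:86705618-86705676, minus strand, motif from base -212: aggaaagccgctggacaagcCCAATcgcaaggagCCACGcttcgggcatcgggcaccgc
Hsp90b1, chr10:86705513-86705571, minus strand, motif from base -107: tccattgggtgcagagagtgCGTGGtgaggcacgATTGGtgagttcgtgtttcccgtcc
Calr, chr8:84847055-84847113, minus strand, motif from base -162: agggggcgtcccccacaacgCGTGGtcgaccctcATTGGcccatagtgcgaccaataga
Canx, chr11:50325780-50325838, minus strand, motif from base -145: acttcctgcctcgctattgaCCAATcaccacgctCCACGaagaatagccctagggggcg
Pdia6, chr12:17266471-17266529, plus strand, motif from base -98: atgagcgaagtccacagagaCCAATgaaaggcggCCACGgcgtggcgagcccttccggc

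The windows of Hsp90b1, Calr, Canx and Pdia6 lie upstream of the gene bounds in GENCODE M21, and that of Hspa5 lies within them, since the GENCODE gene starts at base 34771970 of chromosome 2. With up to 1 mismatch in the fixed letters, Pdia3 and Pdia4 were added, which made 7 of 9 genes, 77.8%, against 1.32% of all promoters. The first transcribed bases of the RefSeq entries of Pdia4 and Xbp1 were not found in GENCODE transcripts of these genes, so the start positions of these 2 promoters are uncertain. The shorter element ERSE-II, ATTGG followed by any base and CCACG, was found in 0 of 9 genes and in 0.0304% of all promoters, and TGACGTGG, the core of another element of the response, which holds CCACG on its other strand, in 0 of 9 and 0.563%. The left part CCAAT alone, which is part of the ERSE, occurred in 8 of 9 genes and 33.8% of all promoters. The right part CCACG alone occurred in 6 of 9 genes and 28.3% of all promoters. A match is a description of the letters in this window and not a bound site.

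**Figure D1:**
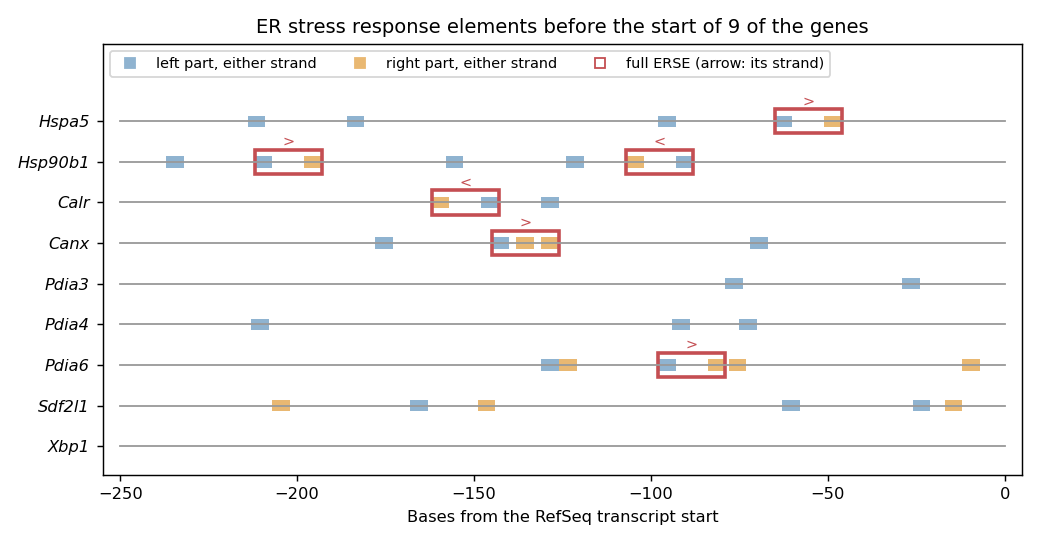
Positions of the full ERSE (outlined boxes, with an arrow for its strand) and of its left and right parts (filled boxes, either strand) in the 250 bases before the RefSeq transcript start of 9 of the genes; the x axis is the distance in bases from the start. Hspa5, Hsp90b1, Calr, Canx and Pdia6 hold the full element, Hsp90b1 at 2 places, and Xbp1, whose start position is uncertain, as is that of Pdia4, holds neither part.

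The deposited value of a gene in a replicate is a normalized read score, that is, reads scaled per replicate with 1 added, so that a score of 1 means no reads. Reads on genes, recovered from the scores, numbered 22399834–28151468 per replicate, with a median of 25115827. Log2 scores were fitted with limma, with the 4 groups in 1 model. A difference was counted as a change with gentamicin when its unadjusted p was under 0.01 and its fold above 1.2, and adjusted p-values are Benjamini-Hochberg values over all genes tested. The cell type labels were checked with known hair cell genes. Atoh1, the transcription factor that specifies hair cells, scored 190.3–223 in control hair cells and 1.289–1.502 in control non-hair cells, and Myo7a, an unconventional myosin of the hair bundle, scored 1581–1726 and 7.86–13.6. The median log2 difference of all genes tested was -0.09 between treated and control hair cells, -0.01 in non-hair cells and -0.12 between control hair and non-hair cells. Scaling by each replicate's total made the first of these -0.01, and scaling by the median ratio made the last -0.01.

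Gentamicin-treated hair cells contained less mRNA of the ER chaperone genes than control hair cells. Of the 10 genes, 8 fell and 0 rose, and in all 10 the 3 treated replicates lay below the 3 controls. Of all genes tested, 27.5% met the same criteria in either direction, 12.7% as higher and 14.8% as lower, and 33.1% had all treated replicates below all controls. The median log2 difference of the 10 genes was -0.48, with a range of -0.84 to -0.29. At an adjusted p under 0.05, 9 of the 10 were lower, against 18.4% of all genes tested. Added together, the 10 genes made up 0.571%, 0.515% and 0.480% of all scores in the control hair cells and 0.431%, 0.369% and 0.409% in the treated ones. Their share in non-hair cells was 0.477%, 0.508% and 0.578% without gentamicin and 0.494%, 0.550% and 0.506% with it, so that only the treated hair cells lay below all other replicates.

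**Figure D2:**
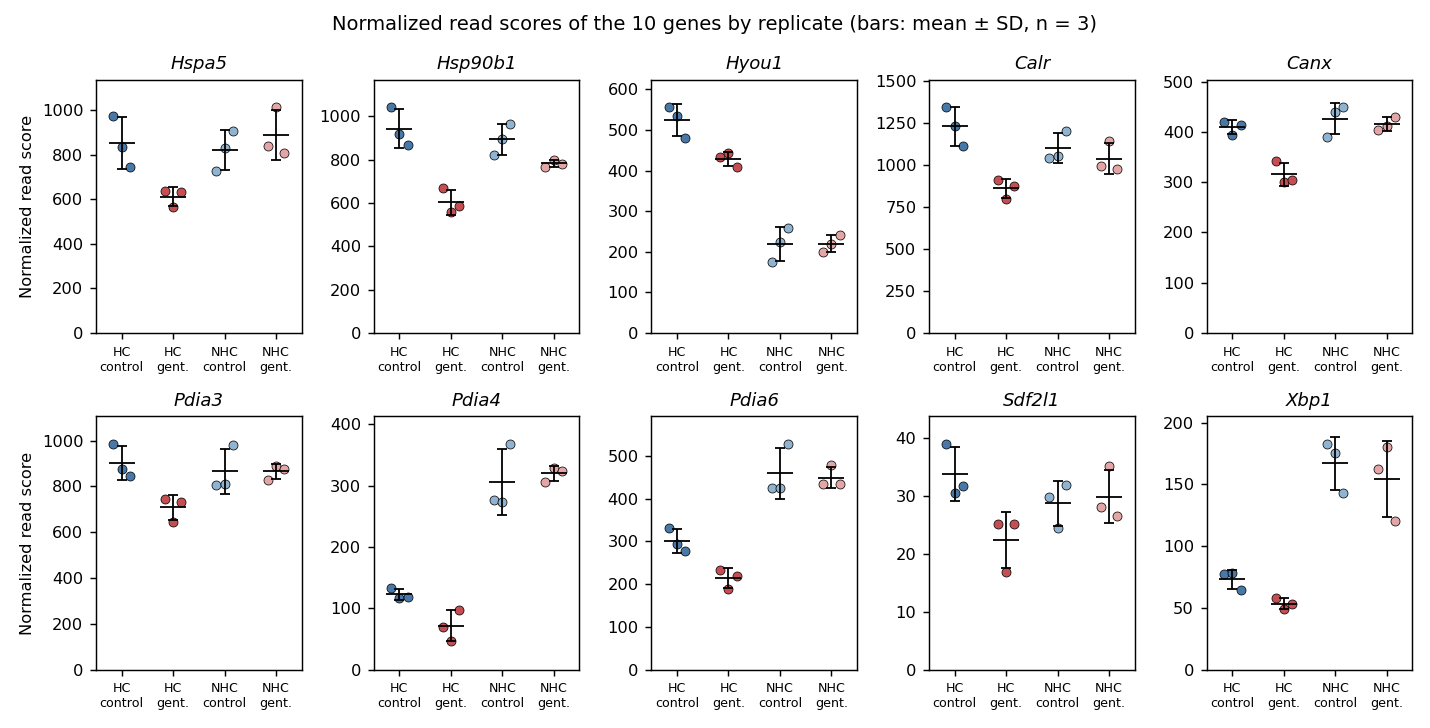
Normalized read scores (y axis, starting at 0) of the 10 genes in control and gentamicin-treated (gent.) hair cells (HC) and non-hair cells (NHC); points are replicates, and bars give the mean ± SD of 3 replicates. In hair cells the treated replicates lie below the controls for each gene, whereas in non-hair cells this holds for Hsp90b1 only.

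Coordinates in parentheses are gene bounds from GENCODE M21 (mm10). Hspa5 (chr2:34771970-34777547), also known as BiP or Grp78, is the Hsp70 chaperone of the ER and holds the stress sensors inactive while it is bound to them. Its scores were 975, 836 and 745 in control hair cells and 638, 564 and 634 after gentamicin. The 3 treated replicates were close to each other and all lay below the lowest control. The log2 difference was -0.47 (SE 0.13, adjusted p = 0.0194), 1.39-fold lower. In non-hair cells the scores were 725, 828 and 904 without and 840.2, 1014 and 809 with the drug, and these groups overlapped, with a log2 difference of 0.12 (SE 0.13).

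Hsp90b1 (chr10:86690209-86705509), also known as Grp94, is the Hsp90 chaperone of the ER, with clients among integrins and Toll-like receptors. Control hair cells scored 1043, 916 and 869, and treated hair cells 667, 558 and 585. This was the difference with the smallest p-value among the 10 genes, a log2 difference of -0.64 (SE 0.11, adjusted p = 0.00118), 1.56-fold lower. Non-hair cells scored 819.8, 895 and 964 without gentamicin and 768, 797 and 781 with it. Here too the groups did not overlap, which 7.68% of all genes tested did in the lower direction, but the log2 difference of -0.19 (SE 0.11) did not meet the criteria.

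Hyou1 (chr9:44379490-44392369), also known as Grp170, is a large member of the Hsp70 family that serves Hspa5 as nucleotide exchange factor. Its scores were 557, 535 and 482 in control hair cells and 433, 444 and 410.1 in treated ones. The groups did not overlap, but with a log2 difference of -0.29 (SE 0.13, adjusted p = 0.102) Hyou1 did not meet the criteria in the main model. It met them when the 2 hair cell groups were fitted alone, and the paper lists it as lower in treated hair cells. Levels in non-hair cells were lower in all replicates, with scores of 176, 223 and 258 without and 199.5, 220.5 and 241 with gentamicin. The log2 difference there was 0.02 (SE 0.13).

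Calr (chr8:84841850-84846934) and Canx (chr11:50293961-50325673) encode calreticulin and calnexin, the soluble and the membrane-bound lectin that hold newly made glycoproteins until they are folded. Calr scored 1346, 1231 and 1116 in control hair cells and 910.5, 800.2 and 876 after gentamicin. It fell by 0.51 on the log2 scale (SE 0.12, adjusted p = 0.00694), 1.43-fold. Canx scored 420.3, 394 and 414 in control hair cells and 342, 301 and 303 after gentamicin, a log2 difference of -0.38 (SE 0.08, adjusted p = 0.00448). It had the narrowest spread of the 10 genes in the fit. In non-hair cells the treated and control replicates of both genes overlapped. Calr scored 1044, 1054 and 1203 without and 992, 1142 and 976 with gentamicin (log2 difference -0.09, SE 0.12). Canx scored 390.5, 439 and 449.7 without and 403, 412 and 430.5 with gentamicin (log2 difference -0.04, SE 0.08).

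Pdia3, Pdia4 and Pdia6 are disulfide isomerases, which form and rearrange disulfide bonds in folding proteins. Pdia3 (chr2:121413775-121438687), also known as ERp57, works on glycoproteins together with Calr and Canx. It scored 987, 874 and 844 in control hair cells and 747, 646 and 732 in treated ones, a log2 difference of -0.35 (SE 0.11, adjusted p = 0.0321). Without any 1 of the 6 hair cell replicates Pdia3 no longer met the criteria. Pdia4 (chr6:47796141-47813430) scored 133, 117 and 118 in control and 70.3, 47.5 and 97.2 in treated hair cells, a log2 difference of -0.84 (SE 0.21, adjusted p = 0.0101), 1.79-fold lower. This is the largest difference of the 10 and the one with the widest spread among the treated replicates. Without treated replicate 2 its log2 difference was -0.57 and without treated replicate 3 it was -1.09, and the criteria were met in both cases. Pdia6 (chr12:17266545-17284770), also known as P5, scored 331, 293 and 278 in control and 234, 188 and 220.1 in treated hair cells, a log2 difference of -0.49 (SE 0.11, adjusted p = 0.00698).

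None of the 3 isomerases met the criteria in non-hair cells, where their treated and control replicates overlapped. Pdia3 scored 808, 811 and 979.9 without and 829, 891 and 876 with gentamicin (log2 difference 0.0041, SE 0.11). Pdia4 scored 276, 274 and 368 without and 307, 328 and 324 with it (log2 difference 0.08, SE 0.21). Pdia6 scored 425, 425 and 528 without and 434, 478 and 435 with it (log2 difference -0.03, SE 0.11). In all 3, control replicate 3 was the highest of the non-hair cell replicates.

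Sdf2l1 (chr16:17130138-17132383) is a small ER protein that works with Hspa5 and its J-domain partners. It was the gene with the lowest scores, 39.0, 30.5 and 31.7 in control hair cells and 25.2, 16.8 and 25.1 in treated ones. It fell by 0.61 on the log2 scale (SE 0.18, adjusted p = 0.0226), 1.53-fold. Non-hair cells scored 29.7, 24.4 and 31.8 without and 28.0, 35.1 and 26.5 with gentamicin, which overlapped (log2 difference 0.06, SE 0.18).

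Xbp1 (chr11:5520659-5525893) is the one transcription factor among the 10 genes, and IRE1 removes an intron from its mRNA under ER stress. The scores count all Xbp1 mRNA and do not tell the spliced form from the unspliced one. Control hair cells scored 77.2, 78.2 and 64.3, and treated hair cells 57.7, 49.1 and 53.6. The groups did not overlap and the adjusted p was 0.0362, but the log2 difference of -0.45 (SE 0.15) missed the unadjusted threshold in the main model. Xbp1 met the criteria when the 2 hair cell groups were fitted alone. Non-hair cells scored 183, 175 and 143 without and 162, 180.4 and 120.5 with gentamicin, and these overlapped (log2 difference -0.13, SE 0.15).

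**Figure D3:**
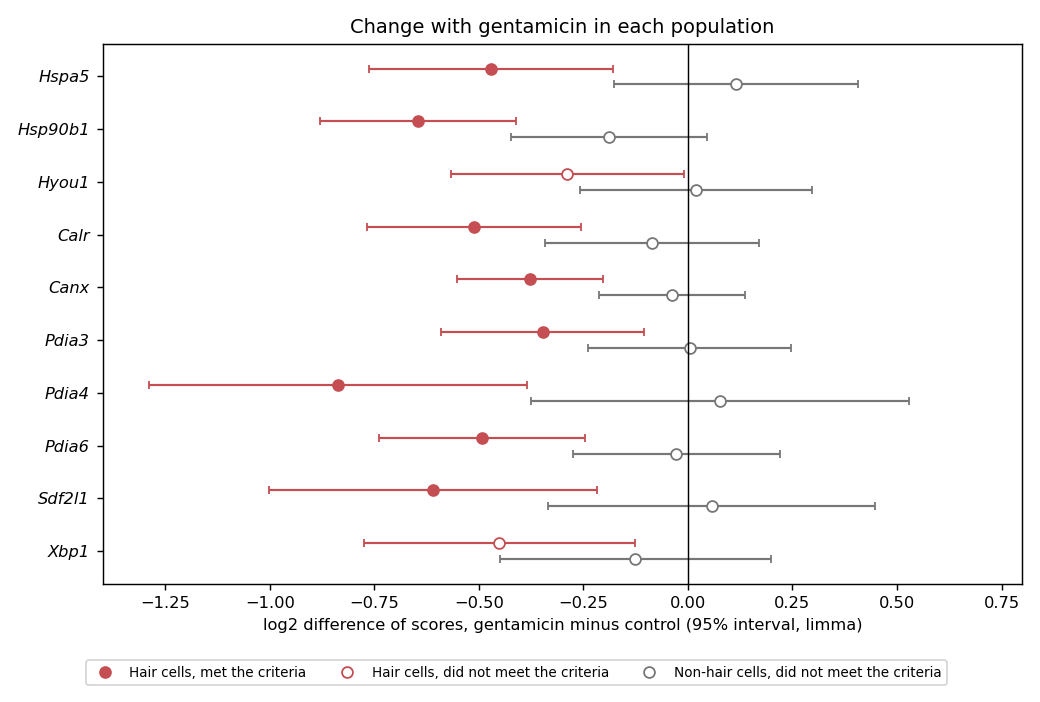
Log2 difference of scores, gentamicin minus control, with 95% intervals from limma (x axis) for each gene in hair cells and in non-hair cells; filled points met the criteria. The hair cell estimates lie between -0.84 and -0.29, and the non-hair cell intervals all include 0.

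In non-hair cells 0 of the 10 genes met the criteria, against 5.44% of all genes tested. At an adjusted p under 0.05 limma gave 0 of the 10, against 0.342% of all genes tested. The estimates ran from -0.19 for Hsp90b1 to 0.12 for Hspa5, with 5 below 0 and a median of -0.01. The widest 95% interval, that of Pdia4, ran from -0.38 to 0.53, and the narrowest, that of Canx, from -0.21 to 0.14.

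The difference between the responses was tested as an interaction. All 10 estimates of the hair cell response minus the non-hair cell response were below 0, from -0.91 for Pdia4 to -0.31 for Hyou1, with a median of -0.44. Over all genes tested, 9202 of 16077 estimates were below 0, with a median of -0.07. None of the 10 had an adjusted p under 0.05 in limma, which 13.4% of all genes tested did. The adjusted p-values were 0.0606 for Pdia4, 0.0615 for Hspa5, 0.0675 for Canx, 0.0677 for Hsp90b1 and 0.0755 for Pdia6. Those of the other genes were 0.102 for Sdf2l1, 0.11 for Calr, 0.155 for Pdia3, 0.272 for Hyou1 and 0.32 for Xbp1. With the replicate number as a block, 1 of the 10 passed, Pdia4. Deviations of same-numbered treated hair and treated non-hair cells correlated at -0.039 to 0.38, so that a pairing by number is not shown there. In the model without the block the 10 genes are not shown to respond differently in the populations at this threshold.

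The count of 8 genes in hair cells rested in part on single replicates. It was 5 without control replicate 1 and 5 without treated replicate 2, and 6 or 7 without each of the others. The share of all genes in these fits was not computed. Hsp90b1, Calr, Canx, Pdia4 and Pdia6 met the criteria in all 6 of these fits, Hspa5 and Sdf2l1 in 3. Scaling by each replicate's total, which raises the treated hair cells, also left these 5 genes. All 10 estimates stayed below 0 in each fit.

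Markers of other cell types moved with gentamicin in the sorted hair cells. The median of 26 markers of mesenchyme, Schwann cells, endothelium and macrophages put the share of RNA from other cells at 6.95%, 11.1% and 6.60% in the control hair cells and at 2.80%, 4.87% and 6.05% in the treated ones. Single markers ranged widely, from 0.63% to 53.9% in the control and from 0.68% to 46.2% in the treated hair cells, so these shares are rough. The summed scores above 1 of 9 mesenchyme markers were 262–563 in control and 181–227 in treated hair cells, against 5944–7469 in control non-hair cells. The 6 endothelial markers summed to 14–27.8 in the hair cells without and 6.80–12.4 in those with the drug, the 5 Schwann cell markers to 111–135 and 73.4–106, and the 6 macrophage markers, which were not lower, to 1.11–1.71 and 1.15–2.75. With this median share of the non-hair cell profile subtracted, 8 of the 10 genes still met the criteria, with log2 differences of -0.92 to -0.33. The 8 supporting cell markers summed to 1796–2125 in control and 871–1467 in treated hair cells, and the 9 hair cell markers to 12345–12804 and 10415–11505. In control non-hair cells the supporting cell markers summed to 1112–2141, so their sum did not tell the control populations apart. Supporting cell RNA was not part of the subtraction, and its part in the result was not tested. No marker was at 0 in every replicate of a group. In sorted bulk samples, fewer cells of a type and less RNA per cell cannot be told apart.

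Without the drug, hair cells held more Hyou1 and less Pdia4, Pdia6 and Xbp1 mRNA than non-hair cells. Of the 10 genes, 1 was higher and 3 were lower in control hair cells at an adjusted p under 0.05, against 31.9% higher and 42.2% lower among all genes tested. Hyou1 was 2.42-fold higher in hair cells, 557, 535 and 482 against 176, 223 and 258 (log2 difference 1.27, SE 0.13, adjusted p = 2.61e-06). Pdia4 was 2.47-fold lower (log2 difference -1.30, SE 0.21, adjusted p = 1.25e-04), Xbp1 2.28-fold lower (-1.19, SE 0.15, adjusted p = 1.72e-05) and Pdia6 1.52-fold lower (-0.61, SE 0.11, adjusted p = 4.18e-04). In each of these 4 genes the replicates of the 2 populations did not overlap, which 34.5% of all genes tested did in the higher and 44.6% in the lower direction. The other 6 genes differed by -0.06 to 0.24 on the log2 scale and did not pass the test. The mean score of Hyou1 was 525 ± 38.9 (SD, n = 3) in hair cells and 219 ± 41.3 in non-hair cells, while that of its partner Hspa5 was 852 ± 116 and 819 ± 89.8.

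Levels of different genes were compared per kilobase of the longest principal transcript in GENCODE M21. In control hair cells Calr led with a score per kilobase of 563 ± 52.7 (SD, n = 3), followed by Hsp90b1 with 333 ± 31.9, Pdia3 with 325 ± 27.3 and Hspa5 with 232 ± 31.6. Hsp90b1 and Pdia3 did not differ beyond their spread. Pdia6 had 138 ± 12.6, Hyou1 117 ± 8.66, Canx 95.4 ± 3.15 and Pdia4 50.9 ± 3.75, and Xbp1 with 33.9 ± 3.64 and Sdf2l1 with 29.5 ± 4.15 came last, within their spread of each other. The same 4 genes led in control non-hair cells, Calr with 503 ± 40.7, Hsp90b1 with 316 ± 25.4, Pdia3 with 312 ± 35.5 and Hspa5 with 223 ± 24.5. Below them the order changed. Pdia6 with 211 ± 27.5 lay within the spread of Hspa5, Pdia4 followed with 127 ± 22.5, Canx with 99.4 ± 7.39 and Xbp1 with 78.0 ± 9.98, and Hyou1 had 48.6 ± 9.20 and Sdf2l1 25.0 ± 3.44. After gentamicin, Pdia3 stood above Hsp90b1 in both populations, with 255 ± 19.7 against 213 ± 20.1 in hair cells and 312 ± 11.6 against 276 ± 5.15 in non-hair cells.

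The 10 genes also varied together between replicates of the same group. The mean Pearson r between pairs of the 10 genes, over deviations from the group means in 12 replicates, was 0.52, and between pairs of all genes tested it was 0.0026. Over the 6 hair cell replicates it was 0.63 and over the 6 non-hair cell replicates 0.49. The points share libraries and their scaling, so these are descriptions. Control hair cell replicate 1 lay above its group mean in all 10 genes, with a median deviation of 0.13 on the log2 scale. Control non-hair cell replicate 3 lay above its group mean in all but Xbp1, with a median of 0.16. Treated hair cell replicate 2 lay below its group mean in all but Hyou1, with a median of -0.12, and the deviation of Pdia4 there was -0.53.

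**Figure D4:**
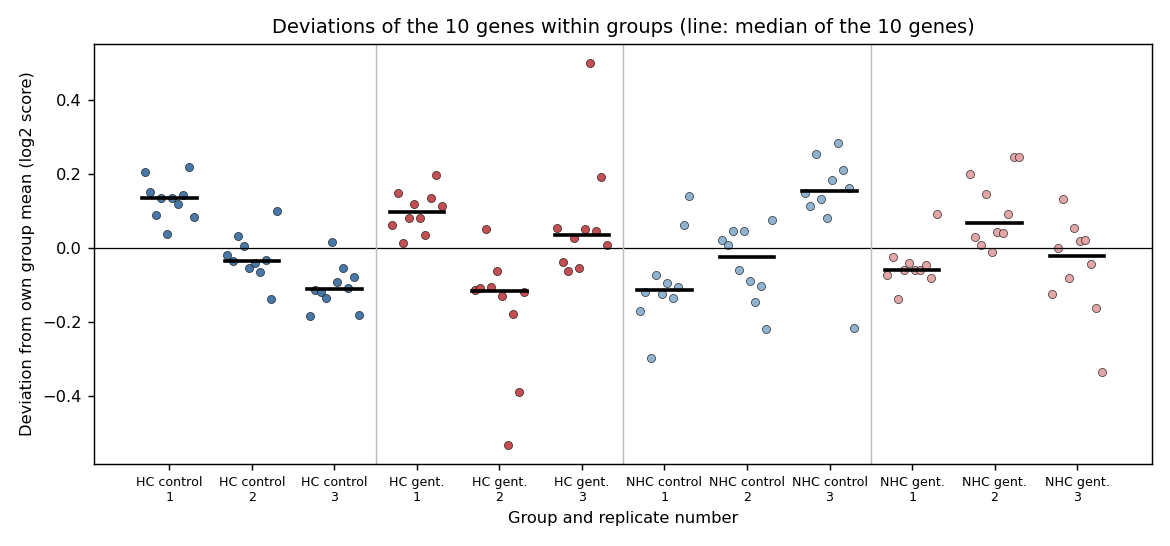
Deviation of each gene's log2 score from the mean of its own group (y axis) in the 12 replicates (x axis), with 1 point per gene in the order Hspa5, Hsp90b1, Hyou1, Calr, Canx, Pdia3, Pdia4, Pdia6, Sdf2l1 and Xbp1 from left to right; lines are medians. The medians run from -0.12 to 0.16, and in control hair cell replicate 1 all 10 genes lie above 0.

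Among the other genes tested, those whose log2 scores followed the mean profile of the 10 genes most closely over the 12 replicates were Fkbp5 (Pearson r 0.95), Wbscr27 (0.95), Vgll4 (0.93), Nsmf (0.93) and Zfhx2 (0.92). Fkbp5, a cytosolic co-chaperone of Hsp90, scored 40.3, 39.2 and 34.1 in control and 30.4, 24.8 and 30.3 in treated hair cells. In non-hair cells it scored 36.5, 36.5 and 39.4 without and 40.1, 39.0 and 36.3 with gentamicin. In control and then treated hair cells Wbscr27 scored 20.2, 18.1 and 20.35 and then 10.8, 9.33 and 10.8. Vgll4 scored 54.7, 48.7 and 50.1 and then 31.9, 25.5 and 33.1. Nsmf scored 167, 174 and 166 and then 93.9, 77.2 and 94.2, and Zfhx2 99.5, 89.9 and 91.2 and then 47.4, 43.3 and 61.2. These genes were selected for the likeness, which is a description over 4 groups.

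The other ER genes were read in 6 lists, beside a list of cytosolic and mitochondrial chaperones. Against the counts below stand the shares of all genes tested, of which 12.7% rose and 14.8% fell in hair cells, and 3.18% rose and 2.26% fell in non-hair cells. Among 15 J-domain proteins and folding helpers, 2 fell in hair cells with gentamicin, 13.3% and thus near the share of all genes, and 0 rose, with a median log2 difference of -0.13. Serpinh1, the collagen chaperone Hsp47, scored 101, 148 and 110 in control and 62.9, 44.5 and 78.9 in treated hair cells, against 1002–1276 in control non-hair cells. It fell by 0.97 (SE 0.21, adjusted p = 0.0047), beside the lower sums of the mesenchyme markers given above, and Dnajc10, a disulfide reductase with a J domain, by 0.32 (SE 0.08, adjusted p = 0.00939). Dnajb11 and Dnajc10 rose in non-hair cells, by 0.39 and 0.28 on the log2 scale, and Creld1 fell by 0.49 there. None of these 3 had an adjusted p under 0.05.

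Of 24 other isomerases and oxidases tested, 7 fell in hair cells, 29.2%, and 0 rose, with a median of -0.26, and 0 changed in non-hair cells. The changes furthest from 0 were those of Ppic (-0.73), Fkbp10 (-0.71) and Fkbp14 (-0.60), prolyl isomerases of the secretory pathway, of which Fkbp10 and Fkbp14 are known for collagen folding. Ppic and Fkbp10 were also far lower in control hair cells than in control non-hair cells, with log2 differences of -3.31 and -2.91. The markers of mesenchyme above, cells known for making collagen, moved with them, and their part in this was not tested. The other 4 genes that fell, named after their values were seen, were P4hb, Txndc5, Qsox1 and Fkbp2, with log2 differences of -0.48, -0.43, -0.29 and -0.30. P4hb is the archetypal disulfide isomerase.

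The list for transfer and trimming of N-glycans held 17 genes, among them Lman1, which acts in transport. Of these 17, 5 fell in hair cells, Lman1 included, 29.4%, and 0 rose, with a median of -0.25. All 17 estimates were below 0, as were 9626 of the 16077 genes tested. In non-hair cells 0 of the 17 changed and the median was 0.05. Lman1, a lectin that carries glycoproteins from the ER to the Golgi, scored 285, 284 and 288 in control and 152, 134 and 154 in treated hair cells, a log2 difference of -0.96 (SE 0.08, adjusted p = 3.27e-05). In non-hair cells it scored 176, 206 and 207 without and 198, 183 and 201 with gentamicin. Magt1 and Stt3b, of the oligosaccharyltransferase, fell by 0.37 and 0.31 in hair cells.

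Among the genes of ER-associated degradation, 3 of 23 rose in hair cells, 13% against 12.7% of all genes tested, and 0 fell, with a median of -0.04. They were Ngly1 (0.62), which strips glycans from retrotranslocated proteins, the ubiquitin-conjugating enzyme Ube2g2 (0.36) and Vimp (0.32), which links the p97 ATPase to the ER membrane. In non-hair cells 1 of 23 rose, the gene of p97 itself, Vcp, by 0.27 on the log2 scale (adjusted p = 0.125).

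Of 17 sensors and factors of the unfolded protein response tested, 4 rose, 23.5%, and 2 fell, 11.8%, in hair cells, with a median of -0.06. Atf4 scored 186, 211 and 183 in control and 651, 757 and 608 in treated hair cells, a log2 difference of 1.80 (SE 0.11, adjusted p = 8.62e-06). Ddit3, the transcription factor CHOP downstream of ATF4, scored 26.2, 29.4 and 24.0 and then 68.3, 82.8 and 67.3, a log2 difference of 1.46 (SE 0.14, adjusted p = 5.58e-05). Ppp1r15a, the phosphatase subunit GADD34 that restores translation, rose by 0.79, and Creb3, named after its values were seen, by 0.29. These 4 genes thus moved in the direction opposite to the chaperones in the same replicates. Not all genes of the list did. Trib3 scored 6.515, 10.19 and 5.931 in control and 5.535, 2.925 and 3.923 in treated hair cells. Its log2 difference of -0.88 did not meet the criteria. Ern1, which encodes IRE1, fell by 0.38, and Creb3l1 by 0.27. In non-hair cells Mbtps1, which encodes the protease that activates ATF6, and Atf6b rose by 0.39 and 0.37, while Ddit3 fell by 0.43 and Trib3 by 1.18, each with an adjusted p above 0.05.

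Of 20 genes of the translocon, signal peptidase and signal recognition, 1 rose in hair cells, Sec11a by 0.35, and 0 fell, with a median of -0.10. Of the 20 cytosolic and mitochondrial chaperones, 2 fell, 10%, and 0 rose, with a median of -0.13. Hspa8, the constitutive Hsp70 of the cytosol, scored 2419, 2281 and 2242 in control and 1774, 1676 and 1545 in treated hair cells, a log2 difference of -0.48 (SE 0.12, adjusted p = 0.0134). Tcp1, a subunit of the cytosolic chaperonin, fell by 0.28. Beside these lists stand the median of -0.48 for the 10 genes and of -0.09 for all genes tested.

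**Figure D5:**
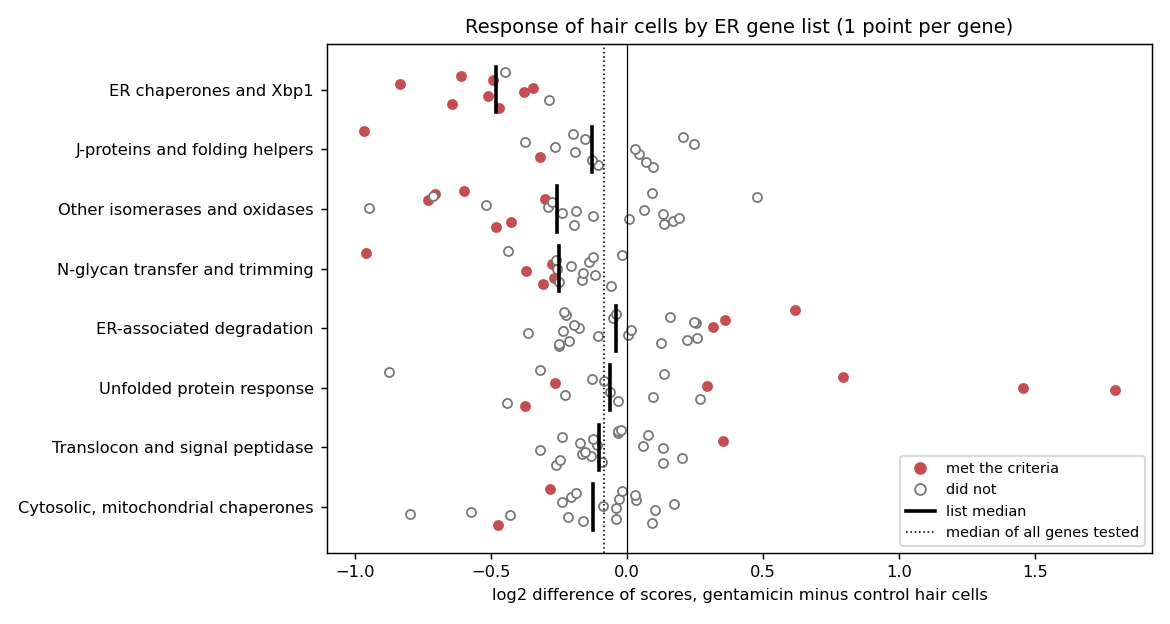
Log2 difference of scores between gentamicin-treated and control hair cells (x axis) for the genes of each list, with 1 point per gene; filled points met the criteria, thick lines are list medians, and the dotted line is the median of all genes tested. The median of the 10 genes is -0.48, those of the other lists lie between -0.26 and -0.04, and the 2 points furthest to the right are Atf4 and Ddit3.

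Between the control populations 104 of the 136 genes tested in these lists had an adjusted p under 0.05 in limma. This was 76.5%, near the 74.1% of all genes tested. Against the counts below stand the shares of all genes tested, 31.9% higher and 42.2% lower in hair cells. Of the cytosolic and mitochondrial chaperones 15 of 20 were higher in hair cells and 2 were lower, the latter being Hspa1a and Hspa1b, whose near-identical sequences make the split of reads between them uncertain. Hsp90aa1, the inducible cytosolic Hsp90, scored 1332 ± 118 (SD, n = 3) in control hair cells and 386 ± 49.1 in control non-hair cells. Of the other ER isomerases and oxidases 17 of 24 were lower in hair cells and 3 higher, and of the translocon genes 13 of 20 were lower and 4 higher. The ER-associated degradation list had 8 of 23 lower and 7 higher, and the N-glycan list 7 of 17 lower and 5 higher. Among the J-domain proteins and folding helpers 7 of 15 were lower and 4 higher. Of the sensors and factors 9 of 17 were lower and 3 higher. Atf6 scored 239.5 ± 11.9 in control hair cells against 62.3 ± 10.1 in the non-hair cells. Its log2 difference was 1.95 (SE 0.12, adjusted p = 3.62e-08), the largest upward difference in this list. Creld2, a known target of the response, was 2.24-fold higher, while Edem1 and Herpud1, of ER-associated degradation, were lower, with log2 differences of -1.60 and -1.02.

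The exact ERSE of the promoters above also lay before genes that did not meet the criteria. Outside the 10 genes, 30 gene symbols had it and 15 of these were tested. In hair cells 2 of the 15 fell with gentamicin, Adcy3 (-0.55) and Zfp57 (-0.77), 13.3% against 14.8% of all genes tested, and 0 rose, with a median log2 difference of -0.05. Among the others were Creld2, Derl3, Dnajc3 and Syvn1, which act in the ER, with log2 differences of 0.25, 0.26, -0.13 and -0.25, none of which met the criteria. Some of the 15 lay near the floor in control hair cells, with mean scores of 1.25 for Calr4, 1.95 for Xlr3c and 3.28 for Derl3. Adcy3 and Zfp57 had means of 8.89 and 6.35 there and of 31.4 and 32.4 in control non-hair cells. The part of RNA from other cells in their fall was not tested.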

How the data were processed

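RNA of sorted hair cells and non-hair cells, with and without gentamicin, was sequenced as 50-base single-end reads in 3 replicates per group. The authors trimmed the reads, aligned them with TopHat 2 in PartekFlow to mm10 and deposited a normalized score per gene and replicate. The methods name RPKM, but 1 step per replicate, the score of 1 read, divided most low scores into whole reads. This step was fitted without regard to gene length and was not compared between genes of different length. Each score was read as a scaled number of reads plus 1. The factor used is not given in the sources used here. Dividing by this step gave whole reads for 77.4–78.7% of low values (tolerance 0.02 reads, up to 20 reads), too few for a count test. Recovered reads per replicate numbered 22399834–28151468, which leaves low genes imprecise.

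Log2 scores of the 16077 genes with at least 100 recovered reads over 12 replicates went into a linear model in limma (version 3.58.1, R version 4.3.3) with moderated variances that follow the mean, on the 4 groups in 1 model, and the procedure was tested on simulated data. All 4 contrasts come from this model and share samples, and the interaction and the control comparison were read at a Benjamini-Hochberg adjusted p under 0.05. The paper calls the replicates biological, without saying what they share. In control hair and control non-hair cells replicate numbers may mark pairs, judged from the data alone, since the labels do not say so. Deviations of same-numbered replicates correlated at 0.20 to 0.32 there, and those of unlike-numbered ones at -0.27 to -0.055. These ranges are not independent, since deviations within a group add up to 0. For treated and control hair cells the same-numbered values were 0.037 to 0.052. They were -0.039 to 0.38 for treated hair and treated non-hair cells, and -0.23 to 0.68 for control and treated non-hair cells. Unlike-numbered control and treated non-hair cell replicates reached 0.57. A pairing by number is thus not shown for the treated groups. The main model leaves the number out, and the fit with it as a block is an alternative. Tables and figures were made with pandas 2.3.3 and matplotlib 3.10.9 in Python 3.11.15.

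The 10 genes and the lists were chosen with earlier results of these data known. All 10 genes are named. From each other list and contrast, up to 3 genes per direction with the largest log2 difference were eligible, provided that they passed the test, that the group with more had a mean score of 5 or above and that the groups did not overlap, and a part of these is named. The 5 genes most like the mean profile and the hair cell genes Atoh1 and Myo7a were also named by rule, and other genes were chosen after their values were seen. Motifs, transcript lengths and positions came from RefSeq and GENCODE M21. Alternatives tried were other scalings, read minimums, offsets, thresholds, a replicate block, fits of 2 groups alone, no trend, each replicate left out and subtraction of RNA from other cells.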

Additional observations from a re-analysis of the deposited data

Results flagged for a closer look

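In limma's interaction test none of the 10 genes had an adjusted p under 0.05 for a difference between the responses of hair cells and non-hair cells. Of the 136 genes tested in the other lists 16 did, 11.8%, which is no more than the 13.4% of all genes tested. The values are the log2 response of hair cells minus that of non-hair cells. Those above 0 were Ddit3 (1.88), Atf4 (1.83) and Ppp1r15a (1.2) of the unfolded protein response, and Ube2j1 (0.38) and Derl2 (0.33) of ER-associated degradation. Those below 0 were Lman1 (-0.95) of the N-glycan list, Fkbp10 (-0.86), Fkbp14 (-0.56) and Txndc5 (-0.56) of the isomerases, Dnajc10 (-0.60) and Dnajb11 (-0.50) of the folding helpers, Mbtps1 (-0.61) and Creb3l1 (-0.35) of the unfolded protein response, Srpr (-0.42) and Ssr1 (-0.35) of the translocon list, and Hspa8 (-0.61) of the cytosol. Dnajc10 fell in hair cells and rose in non-hair cells, and Ddit3 rose in hair cells and fell in non-hair cells. Groups held 3 replicates, too few for a search for single outlying replicates.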

How the results depend on the processing

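All 10 hair cell estimates stayed below 0 in all settings run. The count of 8 genes that fell became 5 with scaling by total and 3 with a fold change above 1.5 (Hsp90b1, Pdia4 and Sdf2l1), and ranged from 5 to 7 with 1 replicate left out. It was 7 to 10 in the other settings, with 10 when the 2 hair cell groups were fitted alone. The cause of these differences was not tested. Shares of all genes were computed for the main fit only, and not at a fold above 1.5. The counts from other fits therefore stand without such a share. For the difference between the responses the count of 0 became 1 with the replicate number as a block (Pdia4) and 2 when read by the criteria of the gentamicin comparisons (Hspa5 and Pdia4). It ranged from 0 to 2 with 1 replicate left out: 1 without treated hair cell replicate 1 (Canx), 1 without treated hair cell replicate 3 (Pdia4) and 2 without control non-hair cell replicate 3 (Pdia4 and Pdia6). Fitted with the replicate number as a block, the counts were 8 in hair cells, where Pdia3 was lost and Xbp1 gained, 0 in non-hair cells and 4 between the control populations. In non-hair cells the count was 0 in all settings run. Between the control populations it was 4, but 5 with scaling by the median ratio, which added Calr and turned the uncalled log2 difference of Canx to 0.069.

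With 1 replicate left out, some uncalled values near 0 changed sign. In non-hair cells these were Hyou1 (-0.13 to 0.15), Canx (-0.099 to 0.0026), Pdia3 (-0.044 to 0.096), Pdia6 (-0.080 to 0.077), Sdf2l1 (-0.065 to 0.14) and Xbp1 (-0.25 to 0.043), and between the control populations Hspa5 (-0.048 to 0.15) and Pdia3 (-0.0065 to 0.15).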
